A study of Mus musculus with 2 samples.

Results

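Nuclear factor of activated T cells (NFAT) and calcineurin genes were examined in whole mouse heart at embryonic day 12.5. The 10 genes were taken by symbol: the transcription factors Nfatc1, Nfatc2, Nfatc3, Nfatc4 and Nfat5, the calcineurin subunits Ppp3ca, Ppp3cb, Ppp3cc and Ppp3r1, and the inhibitor Rcan1. All 10 were found, with 1 row each, among 34236 gene symbols, of which 22240 were protein-coding. RNA was sequenced in 2 libraries, replicate 1 and replicate 2, from embryos of a mixed C57BL/6 x 129S6 background with no treatment. The labels name no mutant allele and leave the origin of each sample (its own embryo, a pool or a litter) unstated, so the spread between the libraries may be technical. Both libraries belong to 1 group, and there was no second condition to compare.

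Calcineurin is a phosphatase that is switched on by calcium and calmodulin. It consists of a catalytic subunit and a regulatory subunit, and it removes phosphates from NFATc proteins, which then enter the nucleus. In the mouse heart this pathway is known for its part in forming the valves from the endocardium and in growth of heart muscle. NFAT5 is the exception in the family: it responds to osmotic stress and does not need calcineurin.

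The level of each gene is given in FPKM, by definition sequenced fragments normalised to transcript length and to the mapped fragments of a library. Levels were compared between genes on that basis. How the libraries were scaled and which transcript lengths were used is not stated in the sources used here. In GENCODE M21, coding transcripts run from 432 to 13380 bases for Nfat5 and from 325 to 3775 bases for Nfatc4, so comparisons between genes carry this uncertainty. Means are given ± SD over the 2 libraries (n = 2). The absolute depth is unknown. From genes at under 0.1 FPKM, replicate 1 was about 1.33 times as deep as replicate 2. Across all symbols the libraries had a Pearson's r of 0.996 and a Spearman's rho of 0.970 on log2(FPKM + 1), a description across genes that are not independent replicates. The labelled tissue was checked against its markers. All 8 cardiomyocyte genes listed were at 1 FPKM or more in both libraries, led by Actc1, Myl2 and Myl7 at 4314 ± 98.4, 3268 ± 115 and 1847 ± 50.2 FPKM.

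All 10 members reached 1 FPKM in both libraries. Of all symbols 36.2% did so, and of protein-coding symbols 52.4%. The members' median was 11.3 FPKM, beside 1.68 FPKM for all protein-coding symbols and 10.9 FPKM for the protein-coding symbols that reached 1 FPKM in both libraries. As a group they lay near the middle of the detected coding genes. The highest member, Rcan1, stood 19.4 times above the lowest, Nfatc2. Of the 10, 4 exceeded 20 FPKM in both libraries, a limit set after the values were seen (Rcan1, Ppp3r1, Ppp3cb and Ppp3ca), as did 14.9% of protein-coding symbols. No NFAT factor was among those 4.

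**Figure D1:**
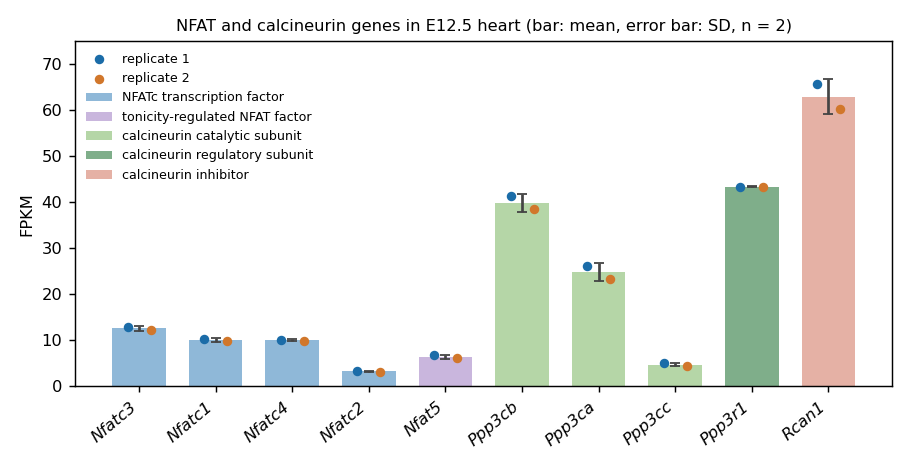
FPKM of the 10 genes in E12.5 heart. Bars are means and error bars SDs of the 2 libraries, points are the libraries, and colours give the role. Rcan1 and the calcineurin subunits Ppp3r1, Ppp3cb and Ppp3ca lie between 23.4 and 65.7 FPKM, and all 5 NFAT factors lie between 3.17 and 12.9 FPKM.

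Rcan1, also called calcipressin 1, is an inhibitor that binds calcineurin and is itself known as a target of NFAT, which makes it a feedback regulator. It is encoded on chromosome 16 (92392198 to 92466391, minus strand, mm9). RefSeq lists 2 start sites for it in the mouse, an upstream one and a downstream one within the gene. The short form from the downstream start is the one known to respond to calcineurin. The deposited tables hold 1 value per gene, so they do not tell the forms apart, and the value below is for both together. The 250 bases before each start are printed because the starts differ in the letters of the NFAT core. Capitals mark GGAAA or TGGAAA on either strand (read as TTTCC or TTTCCA on the strand printed) and the AP-1 letters TGANTCA. Both sequences are RefSeq promoters on GRCm38.p6, minus strand, 5′ to 3′.
Rcan1, downstream start, chr16:92400079-92400328: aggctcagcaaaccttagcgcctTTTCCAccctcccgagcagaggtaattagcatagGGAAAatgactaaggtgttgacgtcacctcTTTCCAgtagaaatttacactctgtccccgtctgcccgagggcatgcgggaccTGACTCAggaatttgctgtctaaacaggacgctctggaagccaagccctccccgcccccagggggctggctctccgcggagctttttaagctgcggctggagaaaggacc
Rcan1, upstream start, chr16:92466170-92466419: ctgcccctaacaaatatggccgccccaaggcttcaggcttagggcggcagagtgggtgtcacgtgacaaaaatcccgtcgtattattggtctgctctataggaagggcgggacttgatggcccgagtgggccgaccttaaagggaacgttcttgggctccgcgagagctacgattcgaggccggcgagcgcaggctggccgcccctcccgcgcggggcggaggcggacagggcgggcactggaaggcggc

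The downstream window held GGAAA at 3 places, beginning 227, 193 and 163 bases before the start. At 2 of these the longer TGGAAA was present, which overlaps GGAAA by construction. The same window held TGANTCA once, from 110 to 104 bases before the start. The upstream window held none of the 3 motifs. Over all 32851 RefSeq windows of this length, 55.6% held GGAAA at least once and 6.39% at 3 or more places. TGGAAA was present in 18.6% of windows, at 2 or more places in 2.28%, and TGANTCA in 6.75%. Windows were on hand for 7 of the 10 members, 10 windows in all, of which 7 held GGAAA, 3 held TGGAAA and 1 held TGANTCA. Ppp3cb, Nfatc4 and 1 of the 2 Nfatc2 windows also held GGAAA at 3 places. A match of letters is a description of the sequence and does not show that a protein binds there.

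Rcan1 had the highest level of the 10 genes, 65.7 FPKM in replicate 1 and 60.3 FPKM in replicate 2, a mean of 63.0 ± 3.80 FPKM. Of protein-coding symbols, 96.0% had a lower mean. Its relatives were lower. Rcan2 was at 22.3 and 22.8 FPKM, and Rcan3 at 5.26 and 5.20 FPKM. Rcan1 thus held 70.4% of the summed FPKM of the 3 calcipressins in replicate 1 and 68.3% in replicate 2, and the libraries did not overlap between any of the 3 genes. On the log2(FPKM + 1) scale the ratio of Rcan1 to Rcan2 was 1.44 ± 0.11 and that to Rcan3 3.36 ± 0.08.

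Ratios between genes were set beside the spread of single genes between the libraries. Among symbols averaging at least 1 FPKM, the libraries differed for 95% by less than 0.32 on the log2(FPKM + 1) scale. A ratio larger than this limit is said to be past the spread. The limit covers differences between the libraries only, not an error common to both, such as reads taken by a similar gene. With 2 libraries, the exact two-sided sign-flip test cannot go below p = 0.5, so no p-value is given. Of 18 ratios computed, 15 were between single genes, and 12 of these were past the spread. The other 3 involve a sum of genes and were not set against this limit. The share of ratios between other genes that would pass the limit was not computed. Counts of ratios past the spread are therefore no trait of these genes.

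The catalytic subunits of calcineurin, which carry the phosphatase activity, were unequal. Ppp3cb, the beta isoform (chromosome 14, 21318586 to 21365795, minus strand), was the highest at 41.3 FPKM in replicate 1 and 38.6 FPKM in replicate 2. Ppp3ca, the alpha isoform (chromosome 3, 136333088 to 136600691, plus strand), had 26.2 and 23.4 FPKM. Ppp3cc, the gamma isoform known from testis (chromosome 14, 70617705 to 70689257, minus strand), had 5.01 and 4.47 FPKM. The order beta, alpha, gamma held in both libraries with no overlap of values.

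Ppp3cb supplied 57.5% ± 0.767 of the summed catalytic FPKM, Ppp3ca 35.7% ± 0.639 and Ppp3cc 6.82% ± 0.128. The log2 ratio of Ppp3ca to Ppp3cb was -0.67 ± 0.04, and those of Ppp3ca and Ppp3cb to Ppp3cc were 2.17 ± 0.01 and 2.84 ± 0.03, all past the spread. Without the pseudocount, Ppp3cb was 8.44 ± 0.271 times Ppp3cc. In the longest coding transcripts of GENCODE M21, the longest identical run shared by any 2 of the 3 was 20 to 23 bases. With all coding transcripts searched, the longest alignment of Ppp3ca with Ppp3cb had 76.1% identity over 1425 bases. That of Ppp3ca with Ppp3cc had 77.6% over 1096 bases.

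**Figure D2:**
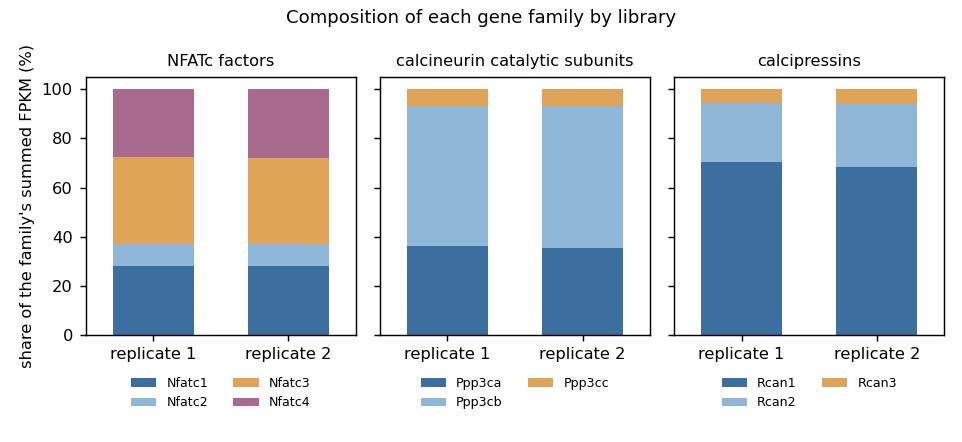
Share of each gene in the summed FPKM of its family (vertical axis, percent), for each library. Nfatc2, Ppp3cc and Rcan3 are the smallest parts of their families in both libraries, at 9.03%, 6.82% and 5.76% on average.

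Ppp3r1 encodes calcineurin B, the regulatory subunit that binds calcium and pairs with any catalytic isoform (chromosome 11, 17059266 to 17100378, plus strand). It was at 43.3 FPKM in replicate 1 and 43.4 FPKM in replicate 2, the closest match between libraries of the 10 genes. Its level was 0.626 ± 0.0398 times the sum of the 3 catalytic genes (69.5 ± 4.26 FPKM), a log2 ratio of -0.67 ± 0.09. Ppp3r1 and Ppp3cb, its neighbour in the order of levels, were within the spread of each other, at a log2 ratio of 0.12 ± 0.07. Ppp3r2, the related regulatory subunit known from testis, was listed at 0 in replicate 1 and at 0.0127 FPKM in replicate 2. The row of Ppp3r1 overlaps 18269 bases of Wdr92 on the same strand, and Wdr92 was at 8.98 and 8.69 FPKM. Their transcripts share 462 identical bases, so how reads were divided between the genes is uncertain.

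Rcan1 was at 0.907 ± 0.000967 times the catalytic sum, a log2 ratio of -0.14 ± 0.0016. The summed NFATc factors, at 35.9 ± 1.13 FPKM, were at 0.518 ± 0.0156 times the catalytic sum, a log2 ratio of -0.93 ± 0.04.

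Among the NFATc factors Nfatc3 was highest. This factor, known from thymocytes and from muscle, had 12.9 FPKM in replicate 1 and 12.3 FPKM in replicate 2 (chromosome 8, 108582740 to 108654437, plus strand). Nfatc1, which in the embryonic mouse heart is known as a marker of the endocardium and is required for the valves, had 10.3 and 9.81 FPKM (chromosome 18, 80802944 to 80909810, minus strand). Nfatc4, which with Nfatc3 is needed for normal heart development in mice, had 10.2 and 9.87 FPKM (chromosome 14, 56443632 to 56452780, plus strand). The 3 genes were close to one another. Nfatc1 and Nfatc4 overlapped, with a log2 ratio of 0.01 ± 0.02, and which of them was higher differed between the libraries. Nfatc3 exceeded both in each library, but by log2 ratios of 0.30 ± 0.00087 over Nfatc1 and 0.30 ± 0.02 over Nfatc4, within the spread. Set against genes of a similar level instead, within 2-fold of the lower gene, both ratios were past it.

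Nfatc2, the factor best known from T cells, stood below the other 3 (chromosome 2, 168301910 to 168427157, minus strand). It had 3.31 FPKM in replicate 1 and 3.17 FPKM in replicate 2, the lowest level of all 10 genes, and still above 55.7% of protein-coding symbols. It made up 9.03% ± 0.00671 of the NFATc sum, beside 35.1% ± 0.161 for Nfatc3, 28.0% ± 0.166 for Nfatc1 and 27.9% ± 0.320 for Nfatc4. Nfatc1 exceeded it by a log2 ratio of 1.38 ± 0.02. Its own log2 ratios were -1.68 ± 0.01 to Nfatc3 and -1.38 ± 0.0077 to Nfatc4, and all 3 were past the spread.

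Nfat5 (chromosome 8, 109817370 to 109903417, plus strand) had 6.73 FPKM in replicate 1 and 6.14 FPKM in replicate 2. It lay between Nfatc2 and the other 3 factors without overlap. Nfatc1, Nfatc3 and Nfatc4 exceeded it by log2 ratios of 0.57 ± 0.03, 0.87 ± 0.03 and 0.57 ± 0.06, and Nfatc2 was below it at -0.81 ± 0.05. Identical runs between the longest transcripts of the 5 factors were 14 to 27 bases long, except for 49 bases shared by Nfatc4 and Nfat5.

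In the order of all 10 levels, 6 of the 9 pairs of neighbours were past the spread, a count without a background from other genes. The other 3 were Ppp3r1 with Ppp3cb, Nfatc3 with Nfatc1, and Nfatc1 with Nfatc4. Against genes of a similar level, a limit tried for neighbours after seeing the data, 5 of the 9 were past it. Nfatc3 with Nfatc1 was then past it, while Nfat5 with Ppp3cc, at a log2 ratio of 0.38 ± 0.01, and Ppp3cc with Nfatc2, at 0.43 ± 0.06, were not. Rcan1 exceeded Ppp3r1 by a log2 ratio of 0.53 ± 0.09, and Ppp3ca exceeded Nfatc3, the highest NFAT factor, by 0.92 ± 0.06.

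**Figure D3:**
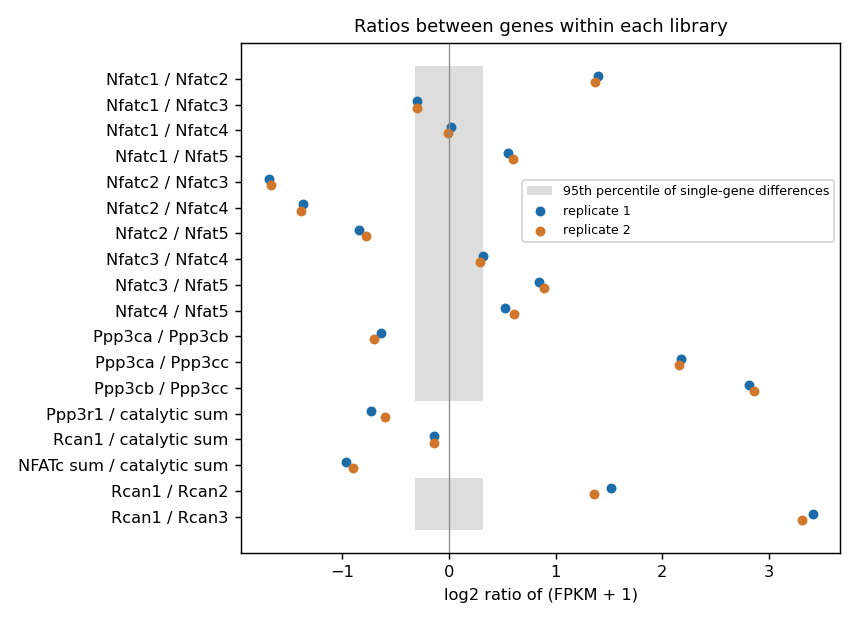
Log2 ratio of (FPKM + 1) for the 18 gene pairs (horizontal axis), 1 point per library. The grey band, drawn for pairs of single genes, runs to 0.32 in either direction, the size under which 95% of single genes differed between replicates. The ratio of Nfatc1 to Nfatc4 lies inside it in both libraries, and the pairs of single genes involving Nfatc2 or Ppp3cc lie outside it.

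The libraries gave nearly the same levels. None of the 10 genes differed 2-fold or more, and of all 12637 symbols with a mean of 1 FPKM or more 0.736% did. All 10 differences were under 0.32 on the log2(FPKM + 1) scale. In size they ran from 0.0047 for Ppp3r1 to 0.16 for Ppp3ca, with replicate 2 lower for Ppp3ca. For Ppp3ca, 92.1% of the 4172 symbols at a similar level had a smaller difference, and for Ppp3r1 4.77% of 2579. Of the 10 genes 9 were lower in replicate 2, Ppp3r1 being the exception, and 66.6% of all symbols averaging at least 1 FPKM were lower there too. After the libraries were rescaled to the same median ratio, 9 of the 10 members were still lower in replicate 2. The share of all symbols lower after this rescaling was not computed, so the rescaled count has no background. The reason for the lower values was not tested. Before rescaling, the median difference was -0.08 for the members and -0.04 for all symbols averaging at least 1 FPKM.

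**Figure D4:**
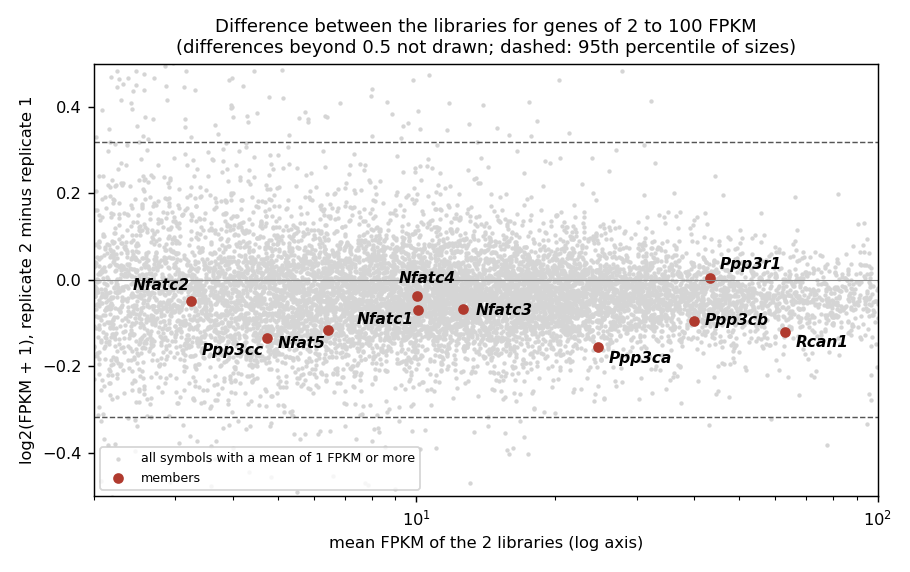
Difference of log2(FPKM + 1), replicate 2 minus replicate 1 (vertical axis), against mean FPKM (horizontal log axis). Red points are the 10 genes, grey points all symbols in the range drawn, and dashed lines mark 0.32 in either direction. All red points lie between the dashed lines, 9 of them below 0.

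Other genes were searched for stretches of 75 bases or longer with at least 98% identity. Besides Wdr92, such stretches were found for Nfatc3 with Esrp2 (219 bases, on the opposite strand in the files) and for Ppp3cc with Gm49417 (94 bases), and for no other member. Esrp2 was at 0.376 and 0.525 FPKM. The row of Ppp3cb overlaps 495 bases of the antisense gene 1810062O18Rik, which was at 1.03 and 1.12 FPKM. Whether the counting used strand is not given in the sources used here.

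Calm2 and Calm3, which encode calmodulin, the protein that carries the calcium signal to calcineurin, were above all 10 members, at 219 ± 4.53 and 112 ± 5.09 FPKM. Each shares near-identical sequence with 1 other gene, so both levels are uncertain. The counts of detected list genes given here and below stand beside 52.4% of protein-coding symbols and 36.2% of all symbols. Of 6 genes of store-operated calcium entry, 5 reached 1 FPKM in both libraries (median 7.19 FPKM). Saraf, which damps this entry, led at 40.8 ± 0.366 FPKM, while the calcium sensors Stim2 and Stim1 were at 8.33 ± 0.262 and 4.98 ± 0.0660 FPKM. The channel Orai1 was at 9.88 ± 0.787 and Orai2 at 0.915 ± 0.0883 FPKM.

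Other proteins that bind or restrain calcineurin ranged widely. Of 11 such genes 8 reached 1 FPKM in both libraries (median 8.47 FPKM). Myoz2, a calsarcin that ties calcineurin to the sarcomere, was at 59.5 ± 2.43 FPKM, close to Rcan1, and Chp1, a calcineurin B-like protein, was at 27.3 ± 0.00445 FPKM. Cabin1, a calcineurin-binding repressor, was at 8.47 ± 0.352 FPKM. Chp2 was at 0.275 ± 0.0323 FPKM and Myoz3 was listed at 0 in both libraries. All 8 immunophilins listed were detected, a family that includes the proteins through which cyclosporin and FK506 block calcineurin. Fkbp1a, the FK506-binding protein, was at 240 ± 3.51, Ppib at 183 ± 5.93 and Fkbp4 at 86.5 ± 1.62 FPKM. Ppia, the main target of cyclosporin, was at 9.03 ± 0.481 FPKM, and 11 other genes share near-identical sequence with it, so its level is uncertain. Ppib shares such sequence with 1 other gene, and its level is uncertain too.

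The kinases that put phosphates back on NFAT and return it to the cytoplasm were all present, 12 of 12 (median 20.6 FPKM). Casein kinase 1 alpha, Csnk1a1, led at 138 ± 3.70 FPKM, followed by the protein kinase A subunit Prkaca at 111 ± 1.95 and Csnk1e at 57.1 ± 1.32 FPKM. Of the GSK3 kinases, Gsk3a was at 31.7 ± 0.431 and Gsk3b at 18.3 ± 1.57 FPKM. Of the DYRK kinases listed, Dyrk1a was at 19.9 ± 1.09, Dyrk2 at 17.7 ± 0.846 and Dyrk1b at 7.05 ± 0.00378 FPKM. For nuclear transport, the importin Kpnb1 and the exportin Xpo1 were at 90.4 and 86.2 FPKM and at 56.9 and 52.6 FPKM in replicates 1 and 2. The noncoding RNA Nron, which holds NFAT in the cytoplasm, was matched through a gene ID to the row A630071L07Rik, listed at 0 in both libraries. The name table gives another ID for Nron as well, so the 0 is for that row only. Of the 6 genes in the transport and retention list, 5 were detected.

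**Figure D5:**
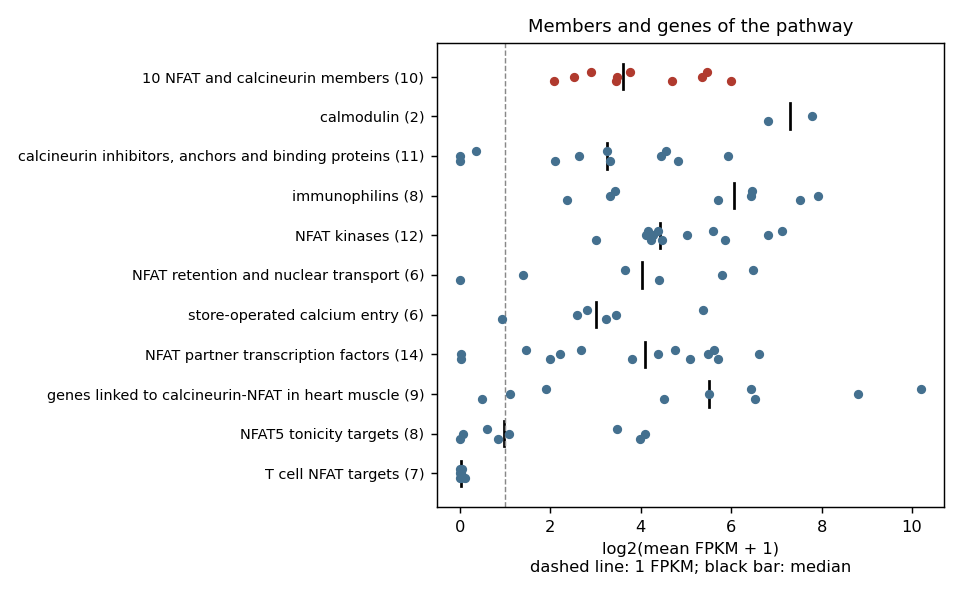
Mean level of each gene as log2(FPKM + 1) (horizontal axis) for the 10 members (red) and 10 lists of pathway genes (blue), with the number of genes in brackets. Black bars are medians and the dashed line is 1 FPKM. Calm2 and Calm3 lie above all members, and the T cell targets lie at or near 0.

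Of 14 transcription factors known to act with NFAT, 12 were detected in both libraries (median 16.4 FPKM). Gata4, the classic cardiac partner, was at 96.5 ± 0.715 FPKM and so above every NFAT factor, and Jund and Gata6 were at 51.6 ± 1.84 and 48.0 ± 2.03 FPKM. Fos, a component of the AP-1 partner, was at 1.76 ± 0.0771 FPKM. Irf4 and Foxp3, partners known from lymphocytes, were at 0.0119 ± 0.00509 and 0.0132 ± 0.00107 FPKM.

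Genes linked to calcineurin and NFAT signalling in heart muscle were mostly present, 8 of 9, though several are also general genes of embryonic myocardium. Nppa was at 1182 ± 87.4, Myh7 at 446 ± 59.0 and Acta1 at 91.4 ± 2.95 FPKM. Vegfa, an endothelial growth factor that calcineurin and NFAT are known to repress in mouse myocardium when the valves form, was at 44.7 ± 2.27 FPKM. The calcium channel gene Trpc6 was at 0.401 ± 0.0508 FPKM. Of 8 tonicity genes known as targets of NFAT5, 4 were detected (median 0.960 FPKM), near the share of 52.4% among protein-coding symbols. The aldose reductase Akr1b3 was at 16.0 ± 1.14, the taurine transporter Slc6a6 at 14.9 ± 0.337 and the chaperone Hspa4l at 10.1 ± 0.0389 FPKM. The inositol transporter Slc5a3 was at 1.12 ± 0.119 FPKM. Hspa1b, Hspa1a and Slc6a12 were under 1 FPKM, and Aqp2, a kidney water channel, was listed at 0. The tonicity genes, among them the related pair Hspa1a and Hspa1b, were not searched for near-identical sequence, so their levels carry that uncertainty.

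None of 7 cytokine and surface genes that NFAT drives in T cells reached 1 FPKM in either library. Il4 was the highest at 0.0798 ± 0.0703 FPKM, and Il2, Ifng and Cd40lg were listed at 0 in both.

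The heart was sequenced whole, so a lower level may come from fewer cells of a type or from less RNA per cell, which cannot be told apart. The summed FPKM of the 10 endocardial and endothelial markers was 368 in replicate 1 and 346 in replicate 2, all 10 detected. Among them Eng was at 63.3 ± 2.95, Tek at 30.2 ± 1.56 and Npr3, an endocardial receptor, at 24.9 ± 1.18 FPKM, each above Nfatc1. Cdh11, counted in that list and known from mesenchyme as well, was at 51.8 ± 2.02 FPKM. All 8 cushion and valve markers were detected, with Postn at 113 ± 4.02 and Sox9 at 9.64 ± 0.257 FPKM, and all 6 epicardial markers, with Upk3b at 63.1 ± 0.434 FPKM.

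Blood and neighbouring tissues were represented unevenly. Red cell markers summed to 23446 FPKM in replicate 1 and 22449 FPKM in replicate 2, all 6 detected. The 6 macrophage markers were detected and summed to 35.0 and 32.4 FPKM. The 7 lymphocyte markers summed to 1.05 FPKM in each library, nearly all of it from the T cell kinase Lck (1.01 ± 0.0208 FPKM). The defining markers Cd3d and Ms4a1 had a listed value of 0. Nfatc2, at 3.24 ± 0.0992 FPKM, was above all of them. Of 6 neuronal and neural crest markers 3 were detected (sums of 7.50 and 8.56 FPKM). Of 5 genes listed as skeletal muscle markers only Ckm was detected, at 13.1 ± 3.21 FPKM. Its 15.4 and 10.8 FPKM made up nearly all of the list's sums of 16.0 and 11.4 FPKM. Ckm is a gene of heart muscle as well, so its level does not show skeletal muscle in the samples. Myog, Myod1, Myf5 and Pax7 were at 0.466 ± 0.0135, 0.105 ± 0.0269, 0.0145 ± 0.00401 and 0.00579 ± 0.00364 FPKM. How much each cell type contributed to the level of any member was not tested.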

How the data were processed

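RNA was sequenced from 2 samples of mouse heart at embryonic day 12.5. Trizol extraction was followed by library preparation with a TruSeq kit and a size selection, per the labels' protocols. The authors deposited 1 FPKM value per gene and sample. GSNAP, Cufflinks and Cuffnorm and the builds mm9 and hg19 are named in the submitters' processing notes, without versions or roles. For the annotation, the strand setting and multiply matching reads, the sources used here state nothing. Coordinates in the files fit mm9, since the last gene on chromosome 1 ends at 197054592, against 195323493 in GENCODE M21 on GRCm38. Promoter sequences are RefSeq's on GRCm38.p6, and no coordinates were converted.

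Rows with the same symbol were summed (346 symbols, none of them a member). Log2 values used a pseudocount of 1 FPKM, which understates the change of weakly expressed genes. Detection meant at least 1 FPKM in both libraries. The files hold no counts, so no count model was fitted and no counting interval is given. The depth of one library relative to the other came from 2881 gene rows above 0 and under 0.1 FPKM, where single fragments set the value; the log2 ratio of 483 of them lay within 0.05 of the most common one. The members and the 19 gene lists were chosen with earlier results of these data known. All 10 members are named, with both genes of each ratio and, of each list, its highest genes and those under 1 FPKM. Genes in between were named after their values were seen. One pathway gene is not reported here. In the lists, 5 genes were matched through the gene ID of a name table. Near-identical transcripts were sought with BLAST 2.17.0 in GENCODE M21. This was done for the members and, of the list genes, only for Ppia, Ppib, Fkbp1a, Calm2 and Calm3. The 2-fold rule and the depth estimate were tested on simulated counting noise at an assumed depth. The gene ratios, shares, lists and sequence searches were not tested in this way. The software was Python 3.11.15 with pandas 2.3.3, NumPy 2.4.6 and Matplotlib 3.10.9.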

Additional observations from a re-analysis of the deposited data

How the results depend on the processing

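No paired analysis was possible because the series has 1 group. All 10 members were detected with either library alone, at a limit of 0.5 FPKM, on values scaled to the same sum per library (the TPM scale) and with the highest row per symbol. None of these settings could lower the count. All 10 were at 1 FPKM or more in both libraries with 1 row each, and the TPM scale raises the values. Only the limit of 5 FPKM could do so, and there 8 were detected, Ppp3cc and Nfatc2 falling below. No member differed between the libraries with a pseudocount of 0.1 FPKM, without the filter, at a mean of 5 FPKM, at 1.5-fold or after rescaling to the same median ratio. Changing the filter could not add a member, because all 10 means were above 1 FPKM. The members' median of 11.3 FPKM was 11.1 without replicate 1 and 11.6 without replicate 2. On the TPM scale it was 29.4, a change of unit that leaves ratios within a library as they were. Of the 15 ratios between single genes, 12 were past the spread with a pseudocount of 0.1 FPKM and without replicate 1, and 13 without replicate 2, where Nfatc3 over Nfatc4 stood at 0.32. Against genes of a similar level 14 were, Nfatc1 over Nfatc3 and Nfatc3 over Nfatc4 being added, while the pairs of neighbours past it numbered 5, against 6. Nfatc1 over Nfatc4 changed direction without replicate 1, to a log2 ratio of -0.0091, from 0.023 without replicate 2, both inside the spread. Of 83 pathway genes 64 were detected with either library alone, 66 at 0.5 FPKM and 54 at 5 FPKM. The shares of all symbols at 0.5 and 5 FPKM were not computed, so counts at these limits have no background. Depth is unknown, and 2 libraries limit the precision.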
